A study of Mus musculus with 16 samples.

Results

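The 8 genes described here, Ddit4, Sesn1, Errfi1, Dusp1, Dusp6, Map3k6, Spry2 and Spry4, are named regulators of the mitogen-activated protein kinase (MAPK) and mTOR signaling pathways, and they were read in the dorsal raphe nucleus (DRN), the main source of forebrain serotonin, with and without dexamethasone (DEX). They were chosen by gene symbol, with the DEX effects in these same libraries known, so their DEX levels are given as a description and carry no test. All 8 were among the 14504 genes of the expression table. By known function 7 of the 8 are brakes of these pathways, whereas Map3k6 encodes a kinase at the top of a MAPK cascade and is an activator. Group means were higher with DEX in each phenotype for Ddit4, Sesn1, Errfi1 and Map3k6, with a narrow gap between treatments for Sesn1 and an overlap in 1 phenotype for Errfi1. The levels of the other 4 (Dusp1, Dusp6, Spry2 and Spry4) largely overlapped between treatments. Group means of Dusp1 and Dusp6 were nevertheless also higher with DEX in each phenotype, by less than the spread of the libraries in most of them.

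Poly(A) RNA was sequenced from the DRN of 16 adult male C57BL/6 mice without genetic modification, 1 library per mouse. The study describes more DRN libraries than these, and the others were not analysed here. Unstressed control mice received saline (con_sal, n = 3) or DEX (con_dex, n = 3), and stressed mice, which met an aggressor repeatedly over 30 days, were split by behavior into a passive coping strategy (PS, labelled dep1) and an active coping strategy (AS, labelled dep2), giving PS saline (dep1_sal, n = 2), PS DEX (dep1_dex, n = 3), AS saline (dep2_sal, n = 3) and AS DEX (dep2_dex, n = 2). DEX, a synthetic agonist of the glucocorticoid receptor, was injected at 2 mg/kg and tissue was taken 6 h after either injection, so the control animals were injected too. Per the study, injections were given the day after the last stress session, and control mice were housed singly for some days before the experiment. The dose is pharmacological and does not stand for a natural hormone surge, the coping groups were made by clustering the behavior of the stressed animals, and the study left out DEX-treated stressed animals whose Tph2 was low, so that Tph2 is no independent check of the tissue.

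The libraries held between 38207157 and 62447298 reads in the listed genes, and the 14 pairs of libraries of one group correlated at Pearson r between 0.96 and 0.99 across genes on the log2 scale. The serotonin neuron markers Tph2, the enzyme of serotonin synthesis, and Slc6a4, the serotonin transporter, were among the high genes of every library, at 91764 to 182191 and 74627 to 129820 normalized counts. The glucocorticoid target Fkbp5, a chaperone of the receptor, lay between 1241 and 1537 normalized counts in the saline libraries and between 5578 and 6958 in the DEX libraries, so its level separated the libraries by their treatment label.

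In the MAPK pathway, a growth factor receptor activates Ras, and a chain of kinases (MAP3 kinase, MAP2 kinase, MAPK) carries the signal to transcription factors. Cells limit this flow at several steps: ERRFI1 binds and inhibits receptors of the EGF receptor family, Sprouty proteins act between receptor and Raf, and dual-specificity phosphatases (DUSPs) remove phosphate from the MAPKs themselves. mTORC1, the kinase complex that couples growth to nutrients, is held back by DDIT4 (REDD1), which acts through the TSC complex, and by sestrins, which sense leucine and act on GATOR2. DUSP1, ERRFI1 and DDIT4 are textbook glucocorticoid-induced proteins in many tissues, while Spry2, Spry4 and Dusp6 are classical readouts of ERK activity, since ERK signaling induces its own brakes.

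Of the 8 genes, 7 had a RefSeq promoter entry (250 bases before to 50 bases after the transcription start, assembly GRCm38.p6), with 9 start sites in all. Spry4 had none. The 4 promoters printed here are those of the members with the largest DEX differences in each role, plus Dusp1 as the textbook target whose level did not separate. The coordinates are chr10:59951721-59952020 on the minus strand for Ddit4, chr4:133240568-133240867 on the plus strand for Map3k6, chr4:150854820-150855119 on the plus strand for the second start site of Errfi1 and chr17:26508423-26508722 on the minus strand for Dusp1. Sequences are read 5′ to 3′ in the direction of the gene, and capitals mark a cAMP response element (CRE).
Ddit4: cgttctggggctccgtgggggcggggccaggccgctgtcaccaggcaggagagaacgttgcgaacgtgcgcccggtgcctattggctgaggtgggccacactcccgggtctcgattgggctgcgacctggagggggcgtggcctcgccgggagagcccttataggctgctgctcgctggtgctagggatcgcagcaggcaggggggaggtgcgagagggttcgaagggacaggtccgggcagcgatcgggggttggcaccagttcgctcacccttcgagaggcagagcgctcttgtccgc
Map3k6: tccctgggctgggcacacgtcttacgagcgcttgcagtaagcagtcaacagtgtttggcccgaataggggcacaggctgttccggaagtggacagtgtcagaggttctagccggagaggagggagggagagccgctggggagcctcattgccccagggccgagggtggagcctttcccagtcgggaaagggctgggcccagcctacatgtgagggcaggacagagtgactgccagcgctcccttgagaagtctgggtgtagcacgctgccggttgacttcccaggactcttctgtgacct
Errfi1: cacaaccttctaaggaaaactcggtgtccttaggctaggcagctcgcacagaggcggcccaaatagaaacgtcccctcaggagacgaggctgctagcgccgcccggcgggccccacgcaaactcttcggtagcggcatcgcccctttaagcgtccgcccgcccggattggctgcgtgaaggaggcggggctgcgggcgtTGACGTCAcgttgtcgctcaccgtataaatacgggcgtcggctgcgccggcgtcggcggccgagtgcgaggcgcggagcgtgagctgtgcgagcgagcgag
Dusp1: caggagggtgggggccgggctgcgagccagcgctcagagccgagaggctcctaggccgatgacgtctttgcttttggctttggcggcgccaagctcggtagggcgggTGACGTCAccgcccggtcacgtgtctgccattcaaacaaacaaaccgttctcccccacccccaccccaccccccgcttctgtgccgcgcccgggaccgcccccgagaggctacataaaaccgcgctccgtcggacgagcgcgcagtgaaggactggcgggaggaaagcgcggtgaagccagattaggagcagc

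A search on both strands for the glucocorticoid response element (GRE) half-site AGAACA, the full palindrome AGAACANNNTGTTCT, which contains that half-site, and the CRE TGACGTCA found no GRE half-site and no full GRE in any of the 9 member promoters. The half-site was present in 19.0% and the full element in 0.00913% of the 32851 promoters of the same length. The CRE was in 1.79% of all promoters, and among the member promoters it was in the second Errfi1 promoter, starting 51 bases before the transcription start, and in the Dusp1 promoter, starting 143 bases before it. A match is a string of letters and not a bound site, and its absence covers only these windows.

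Levels are compared between genes as normalized counts per kilobase of exon. By the mean over the 16 libraries the order was Ddit4 (1380.0), Sesn1 (555), Spry2 (353), Errfi1 (348), Spry4 (198), Dusp6 (162), Dusp1 (151) and Map3k6 (56.9). Ddit4 stood above Sesn1, Sesn1 above Spry2, Errfi1 above Spry4 and Dusp1 above Map3k6 in each of the 16 libraries, and Spry4 above Dusp6 in 15. Dusp6 was above Dusp1 in only 11 of 16 libraries, so the order of the 2 phosphatases is not fixed beyond their spread. Spry2 and Errfi1 changed places between the treatments: Spry2 was above Errfi1 in 8 of 8 saline libraries and in 1 of 8 DEX libraries. The library with the fewest reads for Map3k6 had 57, against at least 355 for each of the other members, and the residual SD of Map3k6 within groups was 0.39 on the log2 scale, against 0.14 to 0.20 for the others.

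**Figure D1:**
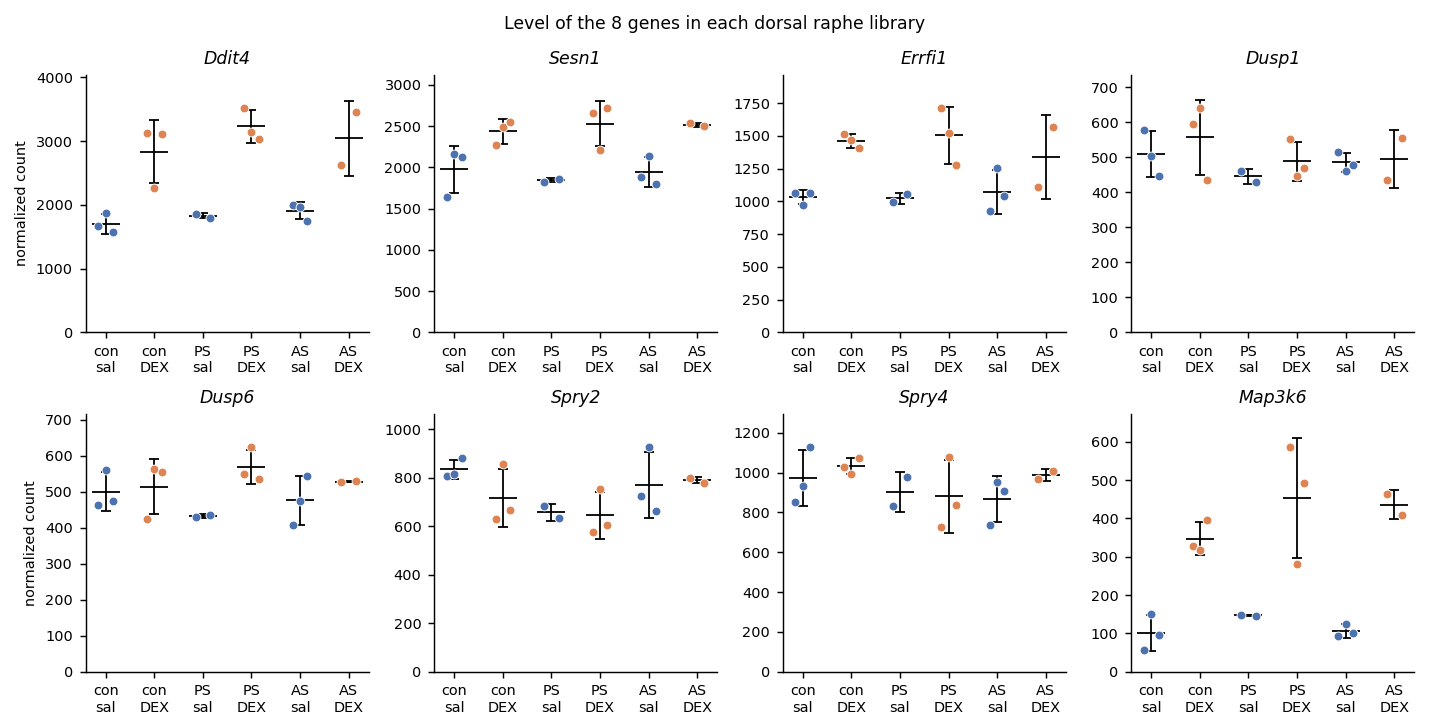
Normalized count (linear axis from 0) of each of the 8 genes in the 16 libraries, by group: blue points are saline and orange points DEX libraries, and the horizontal mark and bar are the group mean and SD (n = 2 or 3). Ddit4, Sesn1 and Map3k6 show 8 DEX libraries above 8 saline libraries, while Dusp1 and Spry2 overlap in each phenotype.

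The mTORC1 brakes were the most abundant members. Ddit4 (ENSMUSG00000020108.4, chr10:59949669-59951834, minus strand, GRCm38) had 1663, 1873.5 and 1570.2 normalized counts in the control saline libraries and 3126, 2259.6 and 3111 in the control DEX libraries. It had 1859.9 and 1799 in PS saline, 3516, 3141 and 3029 in PS DEX, 1991.5, 1970.5 and 1753 in AS saline, and 2627 and 3461 in AS DEX. The lowest DEX library was above the highest saline library, with no overlap in any phenotype. On the scale of log2(normalized count + 1) the log2 fold change was 0.72 ± 0.14 (SE) for control mice, 0.82 ± 0.15 for PS and 0.66 ± 0.15 for AS, with an average over the 3 of 0.73 ± 0.09, which is 1.66-fold. The AS value rested on 2 DEX libraries and was 0.86 without dep2_dex_38 and 0.47 without dep2_dex_42.

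Sesn1 (ENSMUSG00000038332.13, chr10:41809935-41908424, plus strand), a sestrin also induced by p53, was at 1644.5, 2161 and 2119.8 normalized counts in control saline, 2268, 2488 and 2549 in control DEX, 1824 and 1859.8 in PS saline, and 2659.5, 2212 and 2717 in PS DEX. The AS libraries had 1879, 2143 and 1794 with saline and 2532 and 2499 with DEX. The groups did not overlap, but the gap was small: the highest saline library (2161) was close below the lowest DEX library (2212). Control mice showed a log2 fold change of 0.31 ± 0.12, PS mice one of 0.45 ± 0.13 and AS mice one of 0.38 ± 0.13, and the average was 0.38 ± 0.07 (1.30-fold).

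The receptor brake Errfi1 (ENSMUSG00000028967.10, chr4:150853919-150868892, plus strand) had 1061, 969 and 1062 normalized counts in control saline and 1511.5, 1468 and 1407 in control DEX. PS saline libraries had 996 and 1055, and PS DEX libraries 1712.5, 1522 and 1277.5. AS saline libraries had 925, 1256 and 1043, and AS DEX libraries 1111 and 1566. Controls and PS mice were fully separated, whereas dep2_dex_38 (1111) lay within the AS saline range, so 7 of 8 DEX libraries were above all saline libraries. Log2 fold changes of 0.50 ± 0.15, 0.54 ± 0.16 and 0.31 ± 0.16 were found for control, PS and AS mice, with an average of 0.45 ± 0.09 (1.37-fold). The AS value was decided by its 2 DEX libraries, at 0.55 without dep2_dex_38 and 0.06 without dep2_dex_42. The gene model overlaps an antisense transcript, 1700045H11Rik, that is not among the genes of the table.

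Of the MAPK phosphatases, Dusp1 overlapped between treatments in each phenotype and Dusp6 in controls and AS. Dusp1 (ENSMUSG00000024190.7, chr17:26505590-26562128, minus strand), a nuclear phosphatase of p38, JNK and ERK, had 577, 504 and 446 normalized counts in control saline and 594, 640.3 and 436 in control DEX. PS saline libraries had 461 and 430.3 against 551.5, 447 and 468 with DEX, and AS saline libraries 516, 460.4 and 479 against 436 and 554 with DEX. The log2 fold change was 0.12 ± 0.16, 0.13 ± 0.18 and 0.02 ± 0.18 in controls, PS and AS. The 95% interval of the average, 0.09, ran from -0.13 to 0.31 on the log2 scale. Levels were read only 6 h after injection, so an earlier rise of Dusp1 that had passed would not be seen here. The annotated model of Dusp1 extends over Ergic1, a protein-coding gene on the opposite strand that is also in the table, and the sources used here do not state whether the counting used strand, so reads of the shared part cannot be assigned with certainty.

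Dusp6 (ENSMUSG00000019960.8, chr10:99263231-99267489, plus strand), a cytoplasmic phosphatase specific for ERK, had 464, 561 and 475 normalized counts in control saline, 425, 564 and 553 in control DEX, 429 and 436 in PS saline and 549, 623 and 536 in PS DEX. AS saline libraries had 408, 475 and 543, and the AS DEX libraries 527 and 528, inside that range. PS was the only phenotype in which the DEX libraries lay above the saline libraries, with a log2 fold change of 0.39 ± 0.17 against 0.03 ± 0.15 in controls and 0.16 ± 0.17 in AS. The test of that difference did not pass: PS minus control was 0.36 (95% interval -0.12 to 0.83, limma adjusted p = 0.9996).

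The Sprouty genes also overlapped. Spry2 (ENSMUSG00000022114.5, chr14:105891947-105896819, minus strand) had 808, 816 and 879.6 normalized counts in control saline and 628.5, 854 and 665 in control DEX, and it was the one member with a negative average, at -0.07 (95% interval -0.28 to 0.13). Its PS libraries were at 683 and 632.5 with saline and 576, 755 and 603 with DEX, and its AS libraries at 724, 924 and 661 with saline and 798 and 779.9 with DEX. Spry4 (ENSMUSG00000024427.7, chr18:38586247-38601415, minus strand) ranged from 739 to 1126 normalized counts over the 8 saline libraries (median 921) and from 726 to 1079 over the 8 DEX libraries (median 1000.4). Its AS DEX libraries, 967 and 1007, lay above the AS saline libraries, 739, 955 and 909, but the control and PS libraries overlapped. The log2 fold change of Spry4 was 0.10 ± 0.15, -0.06 ± 0.17 and 0.19 ± 0.17 in controls, PS and AS. Its average was 0.08 (95% interval -0.13 to 0.28).

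Map3k6 (ENSMUSG00000028862.6, chr4:133240818-133252929, plus strand), which encodes the MAP3 kinase ASK2 upstream of JNK and p38, had the largest DEX difference of the 8 and the lowest level. Control saline libraries had 56.5, 149.7 and 96.8 normalized counts and control DEX libraries 328, 318 and 396. PS saline libraries had 148 and 146 against 585, 281 and 493 with DEX, and AS saline libraries 91.9, 125 and 101.9 against 463 and 409 with DEX. The lowest DEX library, dep1_dex_6 at 281, was well above the highest saline library at 149.7. The 3 phenotypes had log2 fold changes of 1.87 ± 0.32 (controls), 1.55 ± 0.35 (PS) and 2.03 ± 0.35 (AS), which average to 1.82 ± 0.20 (3.53-fold).

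**Figure D2:**
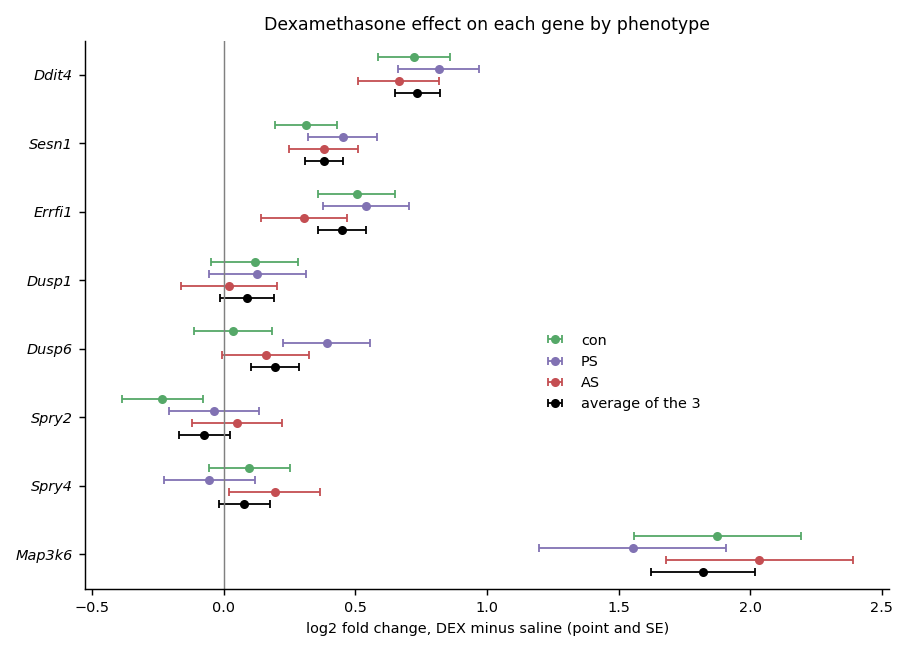
Log2 fold change of DEX against saline (horizontal axis) for each gene in controls, PS and AS and as the average of the 3; points are the limma estimate on log2(normalized count + 1) and bars its SE. Map3k6 stands apart at 1.82, Ddit4, Errfi1 and Sesn1 lie between 0.38 and 0.73 on average, and the averages of the other 4 genes lie between -0.07 and 0.20.

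The members were selected on this contrast, so their counts are set beside the share of all genes only for scale and nothing is read from them. In the average over the phenotypes, 4 of 8 members (Ddit4, Sesn1, Errfi1 and Map3k6) were called higher and 0 lower at a limma adjusted p under 0.1, where 2.78% of all genes were called higher and 1.53% lower. Within controls 2 of 8 (Ddit4 and Map3k6) were called higher, against 1.0% of all genes higher and 0.262% lower. The same 2 were called in PS, where 0.579% of genes were higher and 0.124% lower, and in AS, where 0.538% were higher and 0.152% lower. All 8 DEX libraries were above all 8 saline libraries for 3 of 8 members (Ddit4, Sesn1 and Map3k6) and below for 0, against 1.37% and 0.510% of all genes. The median average effect of the 8 members was 0.29, against -0.0026 over all genes tested.

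Markers of other cells moved between the treatments as well. The summed level of 6 microglia markers ran from 4017 to 5436 normalized counts in saline and from 3295 to 3928 in DEX libraries, without overlap, and 3 of the 6 were called lower on average. Of 6 oligodendrocyte markers 2 were called lower, with summed levels of 128308 to 211326 in saline and 127283 to 178543 in DEX libraries, as were 1 of 6 mural cell markers (5639 to 9298 against 4665 to 7664) and 1 of 6 endothelial markers (5376 to 8774 against 6214 to 7936). Of 4 markers of oligodendrocyte precursors 1, Pdgfra, was called higher on average (summed level 4981 to 6933 against 6034 to 7664), while another, C1ql1, was called lower within controls (-0.86, limma adjusted p = 0.0213) and averaged -0.27; both were named after their values were seen. No marker of serotonin neurons (306816 to 439060 against 290506 to 430182), dopamine neurons (1215 to 6548 against 3052 to 6480.4) or astrocytes (30788 to 43621 against 28934 to 38494) was called, and none of the 44 markers measured for these 8 cell types was at 0 in a library. In bulk tissue, fewer cells of a type and less RNA per cell cannot be told apart, and the part of these shifts in the DEX differences of the members was not tested.

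Chronic stress without DEX was asked next, a comparison in which the members were tested. Among the saline libraries none of the 8 was called between PS and control, AS and control, or AS and PS, where limma called 0% of all genes in each, and none had an unadjusted p under 0.05. Of all genes 7.67%, 2.39% and 3.41% had such a limma p, so little can be read from its absence in 8 members. The largest difference between PS and control was in Map3k6, at 0.65 (95% interval -0.12 to 1.41), with 148 and 146 normalized counts in PS against 56.5 to 149.7 in controls. The smallest p in that comparison was that of Spry2 (limma unadjusted p = 0.0655, adjusted p = 0.571), which was lower in both PS libraries (683 and 632.5) than in the 3 control libraries (808 to 879.6), by -0.34 (interval -0.71 to 0.03). In AS the differences from control were between -0.16 (Spry4) and 0.17 (Map3k6). The intervals of Ddit4, at 0.11 (-0.22 to 0.44) in PS and 0.16 (-0.13 to 0.46) in AS, and of Sesn1, at -0.09 (-0.37 to 0.19) and -0.02 (-0.27 to 0.23), include 0 and differences in either direction. Cell type markers differed between these groups too, though limma called none. The list median largest in size was -0.98 in PS against control (dopamine neurons) and 0.85 in AS against control (ependyma). The part of tissue content in the stress comparisons was not tested.

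The same held among the DEX libraries. No member was called between PS and control (0% of all genes), between AS and control (0.00689%, the 1 gene Gm11583, named after its values were seen and no member) or between AS and PS (0%) by limma, and none had an unadjusted p under 0.05. Such a limma p was found for 1.23%, 3.50% and 1.70% of all genes, so its absence in the members says little. DESeq2 called 0, 12 and 5 genes over the whole table in these 3 comparisons and edgeR 0 in each, also without a member. The smallest p for PS against control was that of Spry4, at -0.25 (95% interval -0.58 to 0.08), and for AS against PS that of Spry2, at 0.30 (-0.07 to 0.67). Averaged over treatment, the 4 stressed groups differed from the 2 control groups by between -0.15 (Dusp1) and 0.37 (Map3k6, interval -0.07 to 0.80), with no member and 0% of all genes called.

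The DEX effects of the members were then compared between phenotypes, which is the interaction of stress and DEX. No member was called for PS minus control, AS minus control or AS minus PS, in each of which limma called 0% of all genes, and none had an unadjusted p under 0.05. Only 2.10%, 4.02% and 2.90% of all genes had such a limma p, so its absence in the members is no sign of equal effects. The DEX effect of Map3k6 was 0.32 lower in PS than in controls on the log2 scale (interval of the difference -1.34 to 0.70) and 0.16 higher in AS (-0.86 to 1.18). For Ddit4 the differences were 0.09 (-0.35 to 0.53) and -0.06 (-0.50 to 0.38), and for Errfi1 0.04 (-0.43 to 0.51) and -0.20 (-0.67 to 0.27). With 2 or 3 libraries per group, the interaction intervals of every member were wider than the average DEX effect of Ddit4 (0.73). The intervals of Map3k6 were the widest. Equal DEX effects were therefore not shown for any member.

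**Figure D3:**
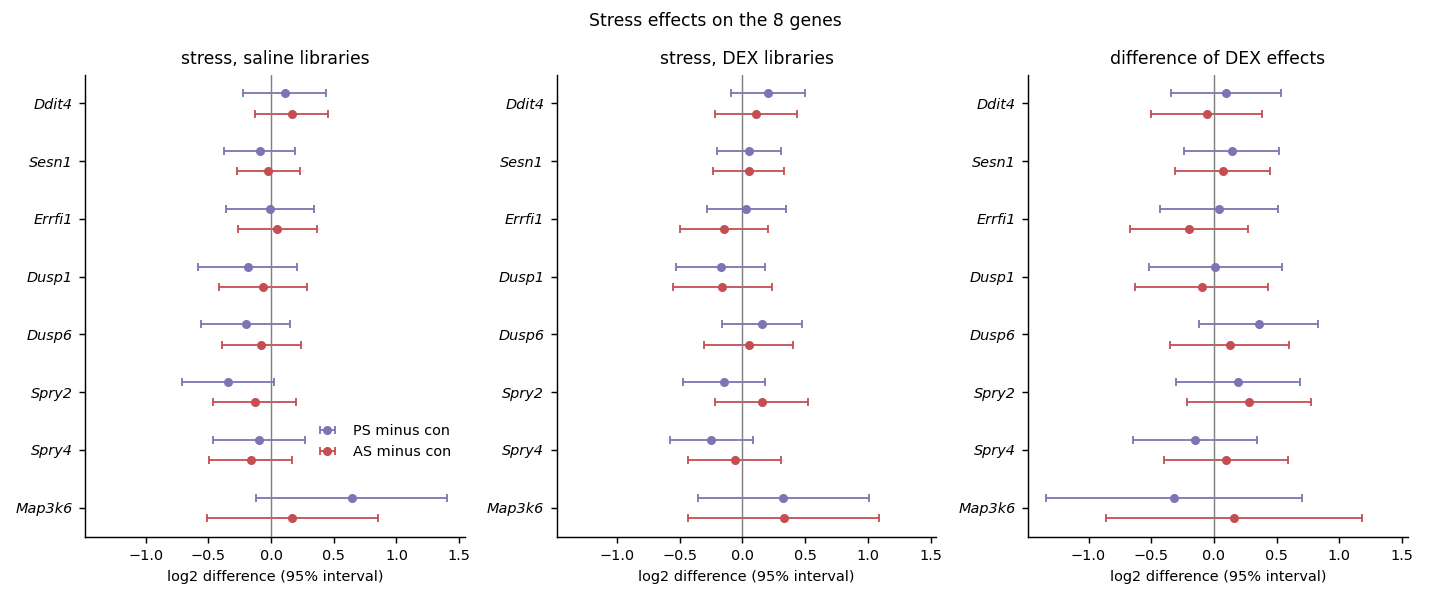
Log2 differences with 95% intervals for the 8 genes: PS and AS against control in saline libraries (left), in DEX libraries (middle), and the difference of their DEX effects from that of controls (right). Each interval includes 0, and those of Map3k6 are the widest, reaching from -1.34 to 1.41 over the 3 panels.

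The other genes of the MAPK and mTOR lists numbered 125, of which 111 were measured. These lists and the related ones below were drawn up with earlier results of these data known, so their calls are no independent test. On average over the phenotypes, 2 of them (Castor1 and Fgfr3) were called higher (1.80%) and 3 (Rasa3, Ccnd1 and Fgfr2) lower (2.70%) after DEX by limma, beside 2.78% and 1.53% of all genes, and their median log2 fold change was 0.02. With the related lists of p53 targets, ATF4 targets and immediate early genes, 137 of 159 genes were measured, and 5 were called higher and 3 lower, the 3 additional ones all p53 targets. Of these 137, 4 were called higher and 2 lower within controls, 3 and 1 within PS, and 3 and 0 within AS. In the stress and interaction comparisons limma and edgeR called 0 of them, and DESeq2 called 2 immediate early genes, which encode subunits of AP-1 and were named after their values were seen. Junb was lower in PS than in control saline libraries, by -1.12 (DESeq2 adjusted p = 0.096) or -1.11 (limma adjusted p = 0.571), with means of 229 and 499.9 normalized counts, and its adjusted p ranged from 0.096 to 0.88 over the alternatives. Fos was lower in stress averaged over treatment, by -0.79 (DESeq2 adjusted p = 0.0123) or -0.80 (limma adjusted p = 0.748), in a range of 0.0123 to 0.988.

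The 5 MAPK lists in this paragraph held 0 calls higher and 1 lower among 55 measured genes. These are 0% and 1.82%, beside 2.78% and 1.53% of all genes. Nothing is read from 1 call about the families. The MAPK core list among them holds no member, and the mTORC1 brakes, the list of Ddit4 and Sesn1, are given in the next paragraph. Of the other 5 MAPK phosphatases measured, 5 Sprouty and Spred proteins, 13 MAP3 kinases and 24 Ras, Raf, MEK and MAPK core genes, 0 were called by limma in either direction, with average effects from -0.15 to 0.09, -0.02 to 0.20, -0.07 to 0.31 and -0.21 to 0.15. Of 8 other receptor and Ras brakes 1 was called: Rasa3, a Ras GTPase-activating protein, fell from a median of 2563 normalized counts in saline (2221 to 2646) to 2082 with DEX (1915 to 2251), by 0.25 ± 0.06 on the log2 scale (limma adjusted p = 0.0236). That call rested on dep1_sal_68, without which the change was -0.22 with a limma adjusted p of 0.124 (0.00144 to 0.124 over all alternatives).

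Among 18 other mTORC1 brakes, Castor1, the arginine sensor that acts on GATOR2 as sestrins do, was the 1 gene called. It rose from 145.9 to 242 normalized counts in saline (median 223.5) to 346 to 545 with DEX (median 435.5), with no overlap, by 1.04 ± 0.11 (limma adjusted p = 5.32e-05), and it was called in each phenotype. Of the 23 genes of the mTOR complexes and their activators 0 were called, with effects from -0.57 to 0.20. The 9 measured ATF4 targets, a stress program that can also induce Ddit4, had 0 calls and a median of -0.04.

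Of 10 other p53 targets, the list that shares Sesn1, 3 were called higher and 0 lower, beside 2.78% and 1.53% of all genes. Average effects on the list ran from -0.24 (Phlda3, not called) to 2.77, with a median of 0.18, and a part of p53 was not tested. Cdkn1a, an inhibitor of cyclin-dependent kinases, rose from 378 to 522 normalized counts in saline to 2457 to 3599 with DEX, by 2.77 ± 0.09 (limma adjusted p = 2.19e-10). Ccng1, cyclin G1, rose from 1701 to 2951 to 2954 to 5210.2, by 0.98 ± 0.14 (adjusted p = 0.000609, limma), with a gap of few counts between the treatments. Trp53inp1, a p53-inducible nuclear protein, rose by 0.44 ± 0.10 on average (limma adjusted p = 0.0272), with 0.75 in controls and 0.59 in PS but -0.02 in AS, where the means were 1030.4 normalized counts with saline and 1016 with DEX. The difference of these effects was not called. The average call was lost without dep1_sal_68 (0.42) and without dep2_dex_42 (0.43), both with a limma adjusted p of 0.107, in a range of 0.00134 to 0.107 over the alternatives.

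Calls in both directions occurred among the receptors upstream of ERK, and the 1 call downstream was lower. Among 10 EGF and FGF receptors and EGF-type ligands, Fgfr3 rose by 0.55 ± 0.09 (3837 to 5946 normalized counts in saline, 5774 to 8509 with DEX, limma adjusted p = 0.00248), and Fgfr2 fell by 0.83 ± 0.10 (1192 to 1770.4 in saline, 633 to 917 with DEX, limma adjusted p = 0.000273). Of 6 other ERK output genes, Ccnd1, which encodes cyclin D1, fell by 0.58 ± 0.10 (906 to 1240 in saline, 516 to 888 with DEX, limma adjusted p = 0.00261), and it was the 1 gene of that list called. Within phenotypes limma called Ccnd1 in controls only, Fgfr3 in AS only, and Fgfr2 in controls and PS. The differences of these effects between phenotypes were not called. Of 9 immediate early genes 0 were called, with effects from -0.27 to 0.41. By comparison, 5 of 5 glucocorticoid reference genes were called higher, with a median of 1.21.

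**Figure D4:**
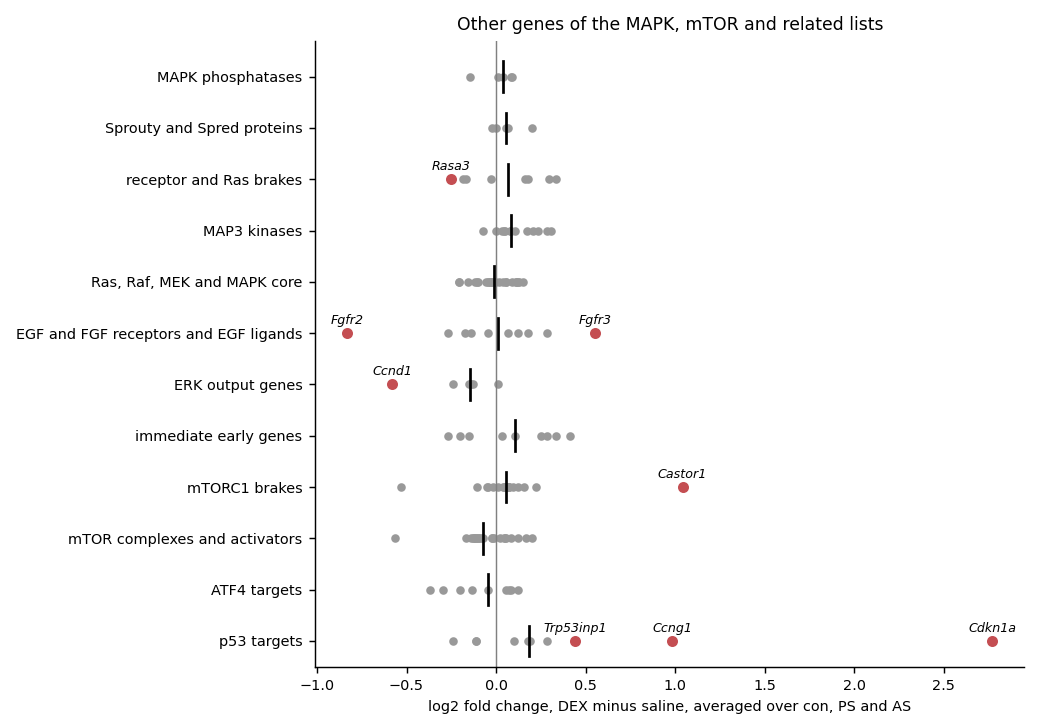
Average log2 fold change of DEX against saline (horizontal axis) for each measured gene of the 12 MAPK, mTOR and related lists, without the 8 members; grey points were not called, red named points had a limma adjusted p under 0.1, and black ticks are list medians. Of the 8 red points, 5 lie to the right and 3 to the left of 0, and list medians lie between -0.15 and 0.18.

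The genes whose level followed each member most closely over the 16 libraries are given as a description, since the libraries share the DEX contrast. For Ddit4 these were Tspan4 (Pearson r = 0.96), Fzd2 (0.96) and Tma16 (0.95), for Sesn1 Sdc4 (0.96), Ccng1 (0.94) and Tsc22d3 (0.93), for Errfi1 Slc25a13 (0.91), Rhob (0.91) and Sgk3 (0.91), and for Map3k6 Gpt2 (0.95), Fkbp5 (0.94) and Cdkn1a (0.94). The 4 members that overlapped between treatments had other partners: Zfp647 (0.83), Fdx1 (0.70) and Btg2 (0.67) for Dusp1, Ppp1r13b (0.75), Pdgfc (0.69) and Bcl2l1 (0.68) for Dusp6, Taf12 (0.93), Rpn2 (0.87) and Stau1 (0.87) for Spry2, and Ubfd1 (0.86), Nmnat2 (0.84) and Ugcg (0.82) for Spry4.

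With the group means subtracted, which removes treatment and stress, the closest genes were Pum3 (0.89), Fra10ac1 (0.87) and Gm12371 (0.87) for Ddit4, Calr3 (0.92), Nsmce1 (0.92) and Rit1 (0.92) for Sesn1, Pdhx (0.88), Arrdc3 (0.88) and Etfb (0.86) for Errfi1, Proca1 (0.90), Polr2i (0.89) and Sesn1 (0.88) for Map3k6, Zfp647 (0.85), Cers5 (0.84) and Btg2 (0.80) for Dusp1, E130309D02Rik (0.83), Gm17484 (0.82) and Lysmd1 (0.78) for Dusp6, Taf12 (0.95), Eloa (0.93) and Rab33b (0.92) for Spry2, and Gphn (0.93), Ugcg (0.88) and Ubfd1 (0.88) for Spry4. Zfp647 and Btg2 for Dusp1, Taf12 for Spry2, and Ubfd1 and Ugcg for Spry4 were thus partners on both measures, while none of the 3 leading partners of Ddit4, Sesn1, Errfi1, Map3k6 or Dusp6 was. Among the 28 pairs of members, Sesn1 and Map3k6 were closest within groups (Pearson r = 0.88, Spearman rho = 0.83, 16 libraries), followed in size by Dusp1 and Spry4, which went in opposite directions (r = -0.60, rho = -0.65). Libraries share depth and dissection, and 16 values with 6 means removed carry few independent points. Both measures use the same 16 libraries and name the 3 highest among 13365 genes, so nothing is read from a partner on both or on 1.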

How the data were processed

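Per the labels and the study's methods, the authors trimmed reads with fastp 0.20.1, aligned them with HISAT2 2.2.1 to GRCm38 and counted genes with featureCounts of Subread 2.0. The deposited signal is the gene count of each library divided by its DESeq2 size factor (DESeq2 1.36.0). Dividing out the steps gave whole reads for 100% of values (tolerance 0.02) at 38207157 to 62447298 reads per library. The deposited tables of the authors' own comparisons, which hold fold changes and p-values, were not used. Differences between replicates were above counting noise in all 14 pairs.

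Log2(normalized count + 1) of all 14504 genes was fitted with limma 3.58.1 (R 4.3.3): 6 group means over 16 libraries, eBayes with trend, and 14 contrasts, each Benjamini-Hochberg adjusted over all genes, with a call at an adjusted p under 0.1. Intervals are 95% and two-sided. Fold changes on this scale understate those of low genes. The method was tested on simulated data. Libraries come from separate mice, and no batch is given in the labels.

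The members and gene lists were chosen with earlier results of these data known. Named genes are the 8 members, up to 3 called genes of the smallest p per list in the average DEX effect, and the 3 genes most correlated with each member among 13365 genes with a mean of at least 50. A repeat of the count test used edgeR 4.0.16, which called 622 genes in the average DEX effect, and DESeq2 1.42.0, which called 904, against 625 with limma. The other alternatives were pseudocounts of 0.1 and 10, a mean of at least 100, TMM scaling, quantile normalization, library weights, fits of only the groups compared, and leaving out each library. Coordinates and exon lengths are from GENCODE for GRCm38, and promoters from RefSeq for GRCm38.p6. Of the markers listed, Kl, Aqp1, Kcnj13 and Alas2 were not analysed here. Ependyma, choroid plexus and blood markers had 0 calls in the average DEX effect, with summed levels of 1722 to 6869, 9.91 to 193 and 594 to 1950.4 in saline and 402 to 9121, 11.9 to 197 and 403 to 1601 in DEX libraries.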

Additional observations from a re-analysis of the deposited data

How the results depend on the processing

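The members were chosen with their DEX effects known, so a recurrence of their DEX calls under other settings is no support, and nothing is read from it. No direction of a called value was reversed. The count of members called higher within a phenotype moved: against 2 in controls, PS and AS, it was 1 to 2, 0 to 2 and 0 to 2 with a library left out, and 0 to 3, 1 to 4 and 0 to 4 under the other settings. The number of pathway genes other than the members called after DEX, average, was 8, and it was 15 with library weights and between 6 and 10 with a library left out. The cause was not tested. No member was called in a stress or interaction comparison under any setting. Over all genes, DESeq2 called 437, 187 and 274 genes for DEX in controls, PS and AS, where limma called 145 higher and 38 lower, 84 and 18, and 78 and 22. For stress averaged over treatment limma called 0 genes (616 at an unadjusted p under 0.05), edgeR 9 and DESeq2 36. For stress in saline limma called 0 genes (1112, 347 and 494 at an unadjusted p under 0.05 for PS and AS against control and AS against PS), edgeR 0, and DESeq2 4, 11 and 1. Without the control saline library that had 57 Map3k6 reads, limma called 15, 20 and 0 genes there, 32 for stress averaged over treatment, and 0, 8 and 6 for the same 3 comparisons in DEX libraries, where it called 0, 1 and 0 with all libraries and DESeq2 0, 12 and 5. No paired analysis was possible because the replicate numbers of the groups differ, each being the number of a separate mouse. Map3k6 had the fewest reads of the members, 57 in its lowest library, and the part of depth in its spread was not tested.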
